A study of Homo sapiens with 24 samples.

Results

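The response of Panc-1 cells to the acinar transcription factor PTF1a was set against their response to the acinar transcription factor MIST1, gene by gene. Panc-1 is an established human cell line from a ductal adenocarcinoma of the pancreas. The genes compared were those listed with raw counts in the tables of both inducible lines, matched by name and by identical exons, which gave 13506 of the 14409 genes listed anywhere in the series. For each gene the Dox minus Control change in the Tet-PTF1a line was compared with the same change in the Tet-MIST1 line, and the question was which genes answered the factors differently, in size or in direction.

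The Tet-PTF1a line carried a doxycycline-inducible, myc-tagged mouse PTF1a open reading frame and the Tet-MIST1 line an inducible, myc-tagged rat MIST1 open reading frame, each stably introduced into Panc-1. Each line was grown from a single drug-resistant clone in high-glucose medium with tetracycline-depleted serum, Tet-PTF1a at passage 32 and Tet-MIST1 at passage 33. Control cultures received no doxycycline, and Dox cultures received 1 µg/ml doxycycline for 72 h. Another line, with the empty Tet-One vector at passage 32, was treated the same way and is used here only as a background for the drug. Each of the 4 groups compared had 4 libraries of polyadenylated RNA, labelled as biological replicates, so p-values measure the spread between cultures of 1 clone. Clone, passage and induced factor cannot be told apart in this design.

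The induced genes came first. The human PTF1A locus was listed in the Tet-PTF1a table only, with raw counts of 2, 1, 0 and 2 in the Control libraries and 95, 148, 53 and 168 in the Dox libraries. The induced message was a mouse sequence, so reads of the transgene and of the human gene cannot be told apart there. BHLHA15, the human gene for MIST1, was also listed in the Tet-PTF1a table only, with 16, 8, 2 and 6 counts in Control and 12, 13, 14 and 22 in Dox. Library totals were unequal, in the same order 43017608, 18077958, 20400368 and 38577527 in Control and 17210609, 20993355, 19128768 and 32382635 in Dox. Relative to its total, every Dox library lay above every Control library, at low counts. The paper reports a rise of this gene with PTF1a by RT-qPCR. BHLHA15 gave no check of the Tet-MIST1 libraries. PTF1A and BHLHA15 are therefore outside the genes compared.

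PTF1a and MIST1 are basic helix-loop-helix proteins that bind E boxes, the DNA sequence CANNTG. PTF1a works as a trimer with a widely expressed E protein and RBPJ or its pancreatic relative RBPJL, at an E box paired with a TC box, and directs pancreas formation and the genes of digestive enzymes. MIST1 binds mainly as a homodimer, is made late in acinar maturation and scales up the machinery of protein secretion. ID proteins lack the basic region and hold E proteins away from DNA, and RBPJ is also the DNA-binding partner of the Notch receptors.

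Total counts per library ran from 17210609 to 43017608 in the Tet-PTF1a line and from 33401866 to 42509834 in the Tet-MIST1 line. Levels are given as CPM, counts relative to the library total after scaling by the trimmed mean of M values (TMM), changes as log2 fold changes, and the difference between lines as the Tet-PTF1a change minus the Tet-MIST1 change, with its standard error (SE). A level written as mean ± SD is over 4 libraries, and the ± of a log2 difference is its SE. A gene was called at a false discovery rate (FDR, Benjamini-Hochberg) under 0.05 in the quasi-likelihood test of edgeR, and 36.4% of all genes (4916) were called for the difference. In bulk RNA, fewer cells expressing a gene and less RNA per cell cannot be told apart. A pair of libraries stood apart from their groups. Tet-MIST1 Dox replicate 1 had 12.9% of its counts on genes with over 6000 exonic bases, against 15.3 to 16.1% in the other Tet-MIST1 Dox libraries, and the highest share on ribosomal protein genes (6.63%). Tet-PTF1a Control replicate 1 was high for stress genes such as NUPR1 (20.5, 12.5, 13 and 12.3 CPM in the 4 Control libraries). Many results that moved without either library are given with and without it, and smaller shifts are not all given. The lines also differed without the drug, since long genes took 23.1 to 23.5% of counts in Tet-PTF1a Control and 15.7 to 16.9% in Tet-MIST1 Control. The replicate spread, as the biological coefficient of variation, was 2.8% in Tet-PTF1a and 6.57% in Tet-MIST1.

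**Figure D1:**
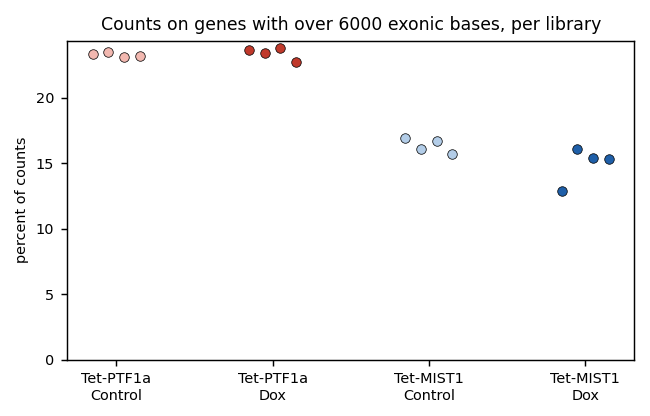
Percent of each library's counts on genes with over 6000 exonic bases, 1 point per library, in the 4 groups compared. The Tet-PTF1a libraries sit between 22.7 and 23.8%, the Tet-MIST1 libraries between 12.9 and 16.9%, and Tet-MIST1 Dox replicate 1 is the lowest point.

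More genes were called with PTF1a than with MIST1, in the line with the smaller replicate spread, and the responses were nearly uncorrelated over genes. In the Tet-PTF1a line 48.5% of genes were called (3232 up and 3322 down), against 20.4% in the Tet-MIST1 line (1596 up and 1162 down). The Tet-One line had 0 genes called in edgeR's quasi-likelihood test, with 400 at an unadjusted p under 0.05. Without its first Dox library 1 gene was called. Over all genes, whose values are not independent of each other, the log2 changes in Tet-PTF1a and Tet-MIST1 had a Pearson r of 0.0388 and a Spearman rho of 0.0423. The difference was called higher in Tet-PTF1a for 2402 genes (17.8%) and lower for 2514 (18.6%). Most differences were small. The median absolute difference of called genes was 0.37 on the log2 scale, and 470 genes reached 1 or more (241 higher and 229 lower in Tet-PTF1a).

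Of the 1502 genes called in both lines, 820 moved the same way (439 up and 381 down) and 682 moved in opposite directions, which is 5.05% of all genes. The opposite genes made up 10.4% of those called in Tet-PTF1a and 24.7% of those called in Tet-MIST1. PTF1a raised and MIST1 lowered 288 of them, and PTF1a lowered and MIST1 raised the other 394. Libraries of the Dox and Control groups did not overlap in either line for 224 of the 288 and 278 of the 394, where 12.8% of all genes were free of overlap in both lines. Both sets were called in these same libraries, so their separation follows largely from the call. Genes moved the same way by different amounts were also mostly free of overlap (139 of 149 larger in Tet-PTF1a, 79 of 101 larger in Tet-MIST1). Opposite changes were mostly modest, with a median of 0.27 in Tet-PTF1a and -0.26 in Tet-MIST1 for the first set and of -0.24 and 0.27 for the second, and 31 genes reached 0.5 in both lines (15 raised and 16 lowered by PTF1a).

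The size of the opposite sets moved with single Tet-MIST1 libraries, both Control and Dox. The 288 became 113, 167, 112 or 198 genes without Tet-MIST1 Control replicate 1, 2, 3 or 4. In the same order the 394 became 227, 253, 222 or 286. Without Tet-MIST1 Dox replicate 3 the sets held 190 and 338 genes, and without Dox replicate 4 they held 201 and 306. Without Tet-MIST1 Dox replicate 2 they held 407 and 477. Without Tet-MIST1 Dox replicate 1, the library that stood apart, the sets held 374 and 488 genes, of which 268 and 388 were shared with the full data. The opposite sets also differed in length, with a median exonic length of 4810 bases for genes raised by PTF1a and 2461.5 for genes raised by MIST1. With the trend on length and base composition removed from each library the sets held 463 and 470 genes, of which 242 and 305 were shared. All 682 opposite genes kept the direction of the difference in both settings. They had been called for that difference in mostly the same counts, so this outcome was largely set in advance.

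**Figure D2:**
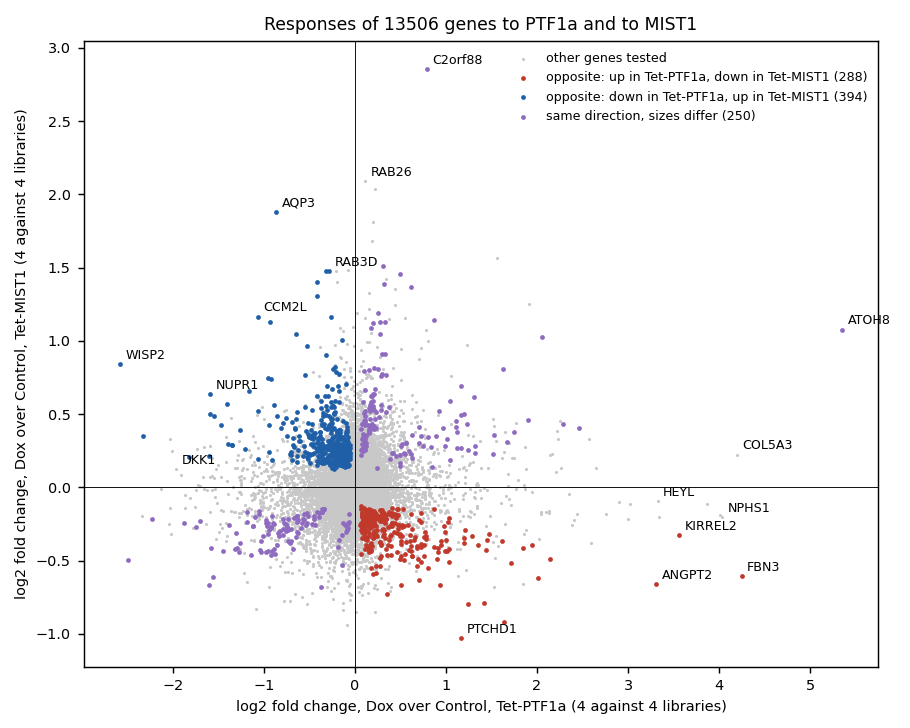
Log2 fold change of Dox over Control in Tet-PTF1a (horizontal) against that in Tet-MIST1 (vertical), 1 point per gene for 13506 genes, each from 4 against 4 libraries. Red and blue points are the 288 and 394 opposite genes and purple points the 250 genes that moved the same way by different amounts; the widest spread runs along the PTF1a axis, to 5.35 for ATOH8.

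Promoter sequences of 5 genes that represent kinds of response are shown because E boxes and TC boxes are the letters these factors read. Each is the 250 bases before the start of the gene as the deposited tables list it, read from the GRCh37 (hg19) primary assembly, 5′ to 3′ on the strand of the gene, with E boxes (CANNTG) and TC boxes (TGGGAAA or its reverse complement TTTCCCA) in capitals. KIRREL2 rose with PTF1a and fell with MIST1, COL5A3 and HEYL rose with PTF1a, ATOH8 rose with both, and RAB26 rose with MIST1.
KIRREL2 (chr19:36347560-36347809, plus strand): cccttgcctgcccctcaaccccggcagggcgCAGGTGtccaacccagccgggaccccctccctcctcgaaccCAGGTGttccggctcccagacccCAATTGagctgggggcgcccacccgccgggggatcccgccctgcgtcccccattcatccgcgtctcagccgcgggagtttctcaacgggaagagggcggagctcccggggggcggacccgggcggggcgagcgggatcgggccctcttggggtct
COL5A3 (chr19:10121148-10121397, minus strand): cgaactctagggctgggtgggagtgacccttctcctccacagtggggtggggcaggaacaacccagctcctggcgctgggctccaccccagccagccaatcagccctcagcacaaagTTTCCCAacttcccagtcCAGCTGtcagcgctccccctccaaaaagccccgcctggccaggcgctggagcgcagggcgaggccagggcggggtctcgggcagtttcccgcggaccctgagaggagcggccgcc
HEYL (chr1:40105349-40105598, minus strand): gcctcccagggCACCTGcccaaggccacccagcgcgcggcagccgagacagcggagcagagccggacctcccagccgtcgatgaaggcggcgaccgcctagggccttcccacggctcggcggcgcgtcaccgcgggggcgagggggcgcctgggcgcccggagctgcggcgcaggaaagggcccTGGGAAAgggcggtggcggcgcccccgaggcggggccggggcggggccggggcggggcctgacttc
ATOH8 (chr2:85980659-85980908, plus strand): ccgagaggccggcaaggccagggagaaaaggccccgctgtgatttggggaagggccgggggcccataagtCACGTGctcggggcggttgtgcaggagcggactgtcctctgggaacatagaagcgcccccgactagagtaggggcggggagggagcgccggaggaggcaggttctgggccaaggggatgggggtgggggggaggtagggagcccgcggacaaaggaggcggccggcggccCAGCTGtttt
RAB26 (chr16:2197895-2198144, plus strand): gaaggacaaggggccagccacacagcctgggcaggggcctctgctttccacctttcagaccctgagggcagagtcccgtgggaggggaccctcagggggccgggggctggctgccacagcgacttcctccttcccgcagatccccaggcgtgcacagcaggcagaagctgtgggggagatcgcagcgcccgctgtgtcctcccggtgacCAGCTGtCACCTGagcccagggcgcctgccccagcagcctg
Of the promoters shown, COL5A3 and HEYL held an E box together with a TC box, a pair found in 3.87% of the 13358 promoters read. The boxes were counted as a pair at any spacing within the 250 bases. The paper's PTF1a motifs set a spacing in helical turns, which was not tested here, and in HEYL the boxes lay far apart. Among the named genes lowered by PTF1a, RAB3D, SEC63, ELF3 and OASL also held the pair. In RAB3D the boxes overlapped in the stretch CAGCTGGGAAA and so were not separate sites. Overlapping boxes were counted as a pair throughout. It was also found in RBPJ, which rose with PTF1a, and in CENPE, called in neither line. An E box of any kind was found in 54.1% of all promoters, in 49.3% of the 286 read for opposite genes raised by PTF1a and in 57.1% of the 389 for opposite genes raised by MIST1. The promoters of genes raised by MIST1 only held the palindrome CAGCTG in 15.4% of 506, against 13.6% of the 389 and 12.1% of all. The pair of an E box and a TC box was found in 4.45% of the 1392 read for genes raised by PTF1a only and in 2.8% of the 286 for opposite genes raised by PTF1a. Of the 6 largest rises with PTF1a only, COL5A3 and HEYL held the pair, and NPHS1, TMEM51-AS1, BMP8A and C3 held an E box without a TC box. These matches are descriptions of the letters in 250 bases, and binding was not measured.

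FBN3 had the largest difference among the 12 opposite genes chosen for the size of their smaller change from those without overlap in either line. It encodes a fibrillin of the extracellular matrix and lies at chr19:8130287-8212385, minus strand. FBN3 was at 0.421, 0.388, 0.54 and 0.208 CPM in Tet-PTF1a Control and 8.98, 8.39, 8.97 and 7.46 in Tet-PTF1a Dox, and at 1.48, 1.65, 1.35 and 1.34 in Tet-MIST1 Control and 0.701, 1.12, 1 and 0.912 in Tet-MIST1 Dox. Every Dox library lay above every Control library in Tet-PTF1a and below every Control library in Tet-MIST1, as the choice required. The log2 difference was 4.90 ± 0.25 (SE, n = 4 per group, edgeR FDR 1.24e-12). ANGPT2, a ligand of the TIE2 receptor at chr8:6357175-6420784, minus strand, was at 0.444, 0.0554, 0.0491 and 0.312 CPM in Tet-PTF1a Control, 3.7, 3.17, 3.31 and 3.41 in Tet-PTF1a Dox, 2.8, 2.49, 2.58 and 2.2 in Tet-MIST1 Control and 1.69, 1.31, 1.76 and 1.49 in Tet-MIST1 Dox. Its Control levels lay near 0 in Tet-PTF1a and above 2 CPM in Tet-MIST1, and the difference was 4.03 ± 0.30 (edgeR FDR 2.94e-10). ANGPT2 lies within MCPH1 on the other strand, and reads of overlapping genes cannot be told apart where strand was not used in counting, which is not stated.

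PTCHD1, a membrane protein with a patched domain at chrX:23352985-23414918, plus strand, was at 6.17, 7.37, 6.87 and 7.14 CPM in Tet-PTF1a Control and 15.4, 15.7, 15.6 and 14.8 in Dox, and at 0.779, 0.503, 0.555 and 0.599 in Tet-MIST1 Control and 0.104, 0.348, 0.271 and 0.365 in Dox. Its difference was 2.18 ± 0.27 (edgeR FDR 7.07e-07), from a rise of 1.16 with PTF1a and a change of -1.03 with MIST1 at low counts. COBL, an actin nucleator at chr7:51083909-51384515, minus strand, was at 1.19, 1.5, 1.13 and 1.35 CPM in Tet-PTF1a Control and 2.9, 2.47, 2.65 and 2.23 in Dox, and at 1.35, 1.39, 1.21 and 1.51 in Tet-MIST1 Control and 0.701, 1.02, 0.677 and 0.943 in Dox. The clones started from similar COBL levels and parted by 1.61 ± 0.21 (edgeR FDR 1.88e-06). FBXO32, the substrate adaptor of a ubiquitin ligase at chr8:124510127-124553493, minus strand, was at 11.9, 11.5, 12.3 and 11.1 CPM in Tet-PTF1a Control and 20.6, 17.6, 19.7 and 18.6 in Dox, and at 36, 33.8, 34.2 and 34.9 in Tet-MIST1 Control and 22.2, 20.3, 23.3 and 22.8 in Dox, so that the Dox groups ended near each other from unlike starting levels. The FBXO32 difference was 1.35 ± 0.08 (edgeR FDR 2.27e-11). KIAA0754 was the least stable of the 12. It was at 50.2 to 76.8 CPM in Tet-MIST1 Control and 13.1 to 44.7 in Tet-MIST1 Dox, with the lowest value in replicate 1, and without that library its MIST1 change missed the threshold (FDR 0.0504) while the difference of 2.58 ± 0.37 stayed called.

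In the other direction, WISP2, a secreted protein of the CCN family at chr20:43343885-43356452, plus strand, was at 2.34, 1.88, 2.06 and 1.9 CPM in Tet-PTF1a Control, 0.227, 0.326, 0.204 and 0.332 in Tet-PTF1a Dox, 2.54, 2.97, 2.63 and 3.51 in Tet-MIST1 Control and 5.92, 5.46, 4.85 and 4.5 in Tet-MIST1 Dox. As the choice required, Dox and Control libraries did not overlap in either line, and the difference was -3.46 ± 0.26 (edgeR FDR 5.02e-10). AQP3, a water and glycerol channel at chr9:33441152-33447631, minus strand, was at 2.22, 1.83, 2.5 and 1.69 CPM in Tet-PTF1a Control and 0.512, 1.07, 1.27 and 1.3 in Dox, and at 2.52, 2.37, 2.73 and 2.82 in Tet-MIST1 Control and 10.2, 10.2, 9.64 and 8.58 in Dox. AQP3 changed by 1.88 with MIST1 and by -0.86 with PTF1a, and the difference was -2.74 ± 0.22 (edgeR FDR 2.28e-09). CCM2L, a paralogue of the vascular gene CCM2 at chr20:30598245-30619984, plus strand, was at 3.65, 3.71, 3.73 and 2.78 CPM in Tet-PTF1a Control and 1.82, 1.77, 1.48 and 1.39 in Dox, and at 2.1, 1.92, 2.03 and 1.74 in Tet-MIST1 Control and 4.2, 5.13, 3.9 and 4.38 in Dox. Its changes were nearly equal in size and opposite in sign (-1.07 and 1.17), a difference of -2.23 ± 0.18 (edgeR FDR 3.62e-09).

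MITF, a basic helix-loop-helix leucine zipper factor of melanocytes and lysosome biogenesis at chr3:69788586-70017488, plus strand, was at 9.93, 9.87, 10.8 and 10.2 CPM in Tet-PTF1a Control and 5.74, 5.18, 5.55 and 5.01 in Dox, and at 1.97, 1.82, 1.81 and 1.71 in Tet-MIST1 Control and 3.09, 2.94, 3.06 and 3.16 in Dox, a difference of -1.65 ± 0.11 (edgeR FDR 1.84e-10). IFITM1, an interferon-induced membrane protein at chr11:313991-315272, plus strand, was at 68.3, 68.6, 67.5 and 73.5 CPM in Tet-PTF1a Control and 30.4, 30.5, 32.2 and 31 in Dox, and at 1.14, 1.65, 1.64 and 2.14 in Tet-MIST1 Control and 2.73, 3.02, 2.3 and 2.28 in Dox. Its difference was -1.81 ± 0.15 (edgeR FDR 3.75e-09), between clones with far apart Control levels. NUPR1, a stress-induced chromatin protein at chr16:28548662-28550495, minus strand, was at 20.5, 12.5, 13 and 12.3 CPM in Tet-PTF1a Control and 4.49, 5.55, 4.58 and 5.01 in Dox, and at 11.7, 13.3, 13.3 and 16.1 in Tet-MIST1 Control and 21.3, 27, 18.4 and 17 in Dox, with a difference of -2.21 ± 0.26 that became -1.96 without Tet-PTF1a Control replicate 1. A Control level more than 2 times apart between the clones, in either direction, was found in 19.9% of the opposite genes and 18.6% of all genes.

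With doxycycline alone, in the Tet-One line, 0 of these 12 genes were called, their log2 changes ran from -0.39 to 0.18, and the lowest edgeR FDR was 0.897. With all 24 libraries in 1 fit 2716 genes were called for the difference, and 5048 without the first Tet-One Dox library. A missed call in Tet-One does not show that the drug had no effect. Without Tet-MIST1 Dox replicate 1, and again with the length trend removed, 11 of the 12 stayed opposite, KIAA0754 being the exception. All 12 stayed opposite without Tet-PTF1a Control replicate 1.

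**Figure D3:**
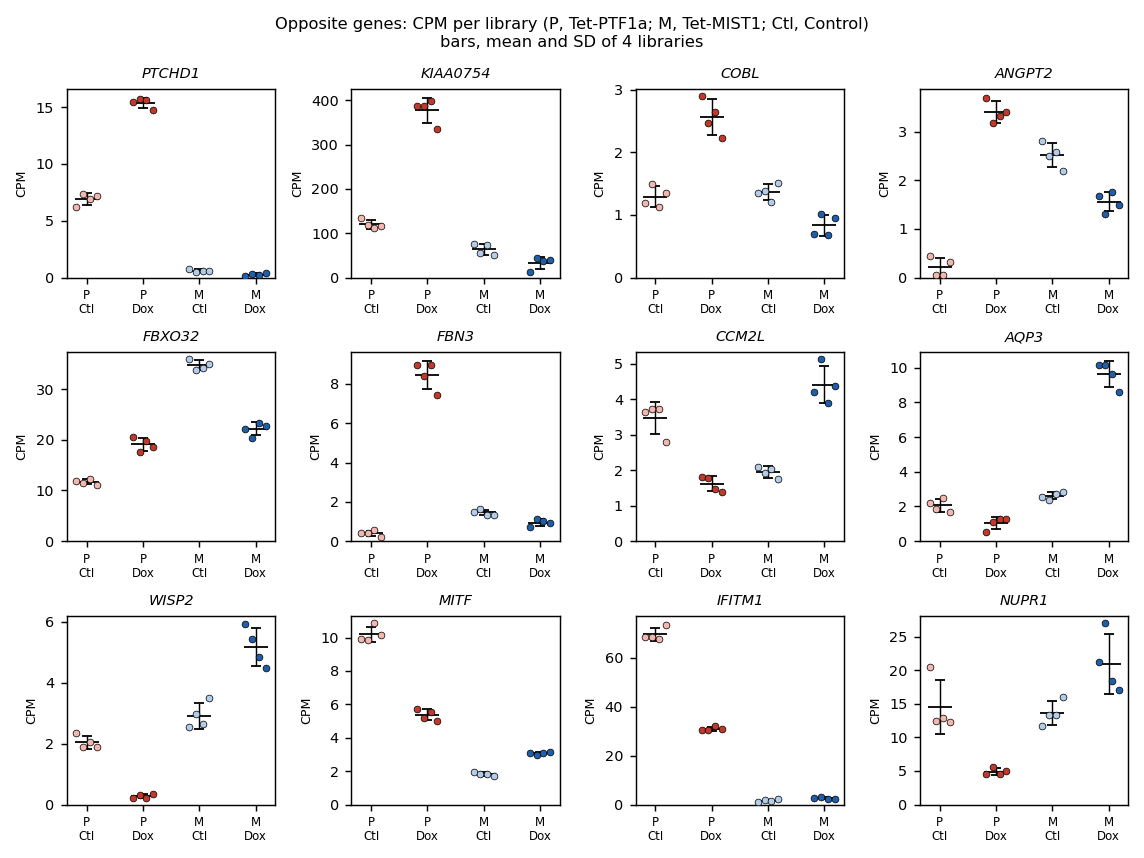
CPM of the 12 opposite genes in each library, by line and treatment, on axes that start at 0; points are libraries and bars the mean and SD of 4. In the upper 6 genes the PTF1a Dox points lie above their Controls and the MIST1 Dox points below theirs, and in the lower 6 the reverse, with NUPR1 showing the 1 high Tet-PTF1a Control library (20.5 CPM).

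A further opposite gene came from the list of neural PTF1A targets. KIRREL2, a nephrin-related adhesion protein at chr19:36347810-36358048, plus strand, was at 9.28, 9.76, 10.6 and 9.43 CPM in Tet-PTF1a Control, 109, 114, 117 and 117 in Tet-PTF1a Dox, 26.9, 27.8, 26.2 and 26.7 in Tet-MIST1 Control and 21.3, 21.3, 20.4 and 22 in Tet-MIST1 Dox. Its difference of 3.89 ± 0.06 had an edgeR FDR of 1.38e-20. NPHS1, which encodes nephrin itself and starts 4915 bases from KIRREL2 on the other strand, rose by 4.03 with PTF1a (0.794, 1.05, 1.13 and 0.805 CPM in Control, 15.9, 16.1, 16.8 and 14.8 in Dox). In Tet-MIST1 NPHS1 was at 0.311, 0.335, 0.652 and 0.628 CPM in Control and 0.311, 0.588, 0.406 and 0.304 in Dox, and was not called there (FDR 0.626). The neural list had 8 members tested, of which 3 were called higher and 3 lower, the lower ones including GAD1, the GABA-synthesising enzyme (-0.70 ± 0.15), and PRDM8 (-0.61 ± 0.12). The median difference was 0.14, against 0.001 over all genes, and 0.07 without Tet-MIST1 Dox replicate 1. PTF1a raised 3 of the 8 members and lowered 4. The summed level of the list was 130 to 135 CPM in Tet-PTF1a Control, 214 to 224 in Tet-PTF1a Dox, 124 to 133 in Tet-MIST1 Control and 113 to 122 in Tet-MIST1 Dox. KIRREL2 alone rose by more CPM with PTF1a than the sum did, so the sum does not describe the other members.

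Genes moved by both factors in the same direction differed in size in 250 cases, 149 with the larger change in Tet-PTF1a and 101 in Tet-MIST1. ATOH8, a basic helix-loop-helix factor at chr2:85980909-86018506, plus strand, was at 0.537, 0.942, 0.736 and 0.805 CPM in Tet-PTF1a Control and 32.9, 32.2, 32.4 and 32.1 in Tet-PTF1a Dox. In Tet-MIST1 it was at 1.45, 1.25, 1.5 and 1.48 in Control and 3.69, 2.19, 3.17 and 3.04 in Dox. Both factors raised ATOH8, PTF1a by 5.35 and MIST1 by 1.08, a difference of 4.31 ± 0.21 (edgeR FDR 1.38e-12). BATF2, a basic leucine zipper factor, rose by 2.46 and 0.41, and DIO3, the enzyme that inactivates thyroid hormone, changed by -2.49 and -0.50 in the same order.

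MIST1 gave the larger response for C2orf88, a protein that anchors protein kinase A, at chr2:191002486-191068210, plus strand. It was at 2.57, 2.77, 2.7 and 2.83 CPM in Tet-PTF1a Control and 4.43, 5.04, 4.28 and 4.98 in Dox, and at 1.95, 2.06, 1.79 and 1.77 in Tet-MIST1 Control and 15.2, 12.1, 14.3 and 14 in Dox, a difference of -2.05 ± 0.14 (edgeR FDR 2.59e-10). HID1, which acts in the making of dense-core secretory granules, was at 5.42, 5.16, 5.6 and 5.09 CPM in Tet-PTF1a Control and 5.63, 6.62, 7.18 and 6.88 in Dox, and at 9.11, 8.24, 8.93 and 8.5 in Tet-MIST1 Control and 22.9, 23.9, 20.7 and 23 in Dox. The rise of HID1 was 0.32 with PTF1a and 1.39 with MIST1, a difference of -1.06 ± 0.10. CCDC181 rose by 0.31 and 1.51, from a lower Tet-MIST1 Control level (0.265 to 0.441 CPM against 3.44 to 4.27 in Tet-PTF1a). Without Tet-MIST1 Dox replicate 1 the set with the larger PTF1a change held 246 genes, and without Tet-MIST1 Control replicate 1 or 3 it held 81 or 80. The set with the larger MIST1 change held 154 without Tet-MIST1 Dox replicate 2.

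Most differences came from genes called in 1 line only, with 1409 up and 1289 down in Tet-PTF1a and 512 up and 347 down in Tet-MIST1, and 427 genes were called for the difference but in neither line. Being called in 1 line does not show a lack of response in the other. The 6 largest rises of this kind with PTF1a were NPHS1, TMEM51-AS1, COL5A3, BMP8A, C3 and HEYL. COL5A3, a fibrillar collagen chain at chr19:10070237-10121147, minus strand, was at 0.537, 0.61, 0.884 and 0.623 CPM in Tet-PTF1a Control and 12.6, 12.2, 12.8 and 13.9 in Dox, and at 0.675, 0.503, 0.483 and 0.542 in Tet-MIST1 Control and 0.779, 0.562, 0.623 and 0.608 in Dox (difference 4.01 ± 0.25, edgeR FDR 3.02e-11). The complement component C3 was at 0.327, 0.277, 0.442 and 0.597 CPM in Tet-PTF1a Control and 5.17, 4.9, 5.2 and 4.77 in Dox, and at 1.84, 1.6, 1.98 and 1.8 in Tet-MIST1 Control and 1.27, 2.11, 1.41 and 1.4 in Dox (3.58 ± 0.25). BMP8A, a ligand of the BMP family, went from 1.21 ± 0.206 to 18.5 ± 1.13 CPM with PTF1a and was at 0.668 ± 0.141 and 0.609 ± 0.101 in Tet-MIST1 Control and Dox (4.00 ± 0.24), and TMEM51-AS1, a non-coding RNA, had a difference of 4.21 ± 0.15. BMP8A overlaps PPIEL and TMEM51-AS1 overlaps KAZN on the other strand.

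The 6 largest falls with PTF1a were BCAS1, COL13A1, ABCC3, DKK1, SMAD6 and MT2A. DKK1, a secreted WNT inhibitor at chr10:54074041-54077417, plus strand, was at 219.8, 212, 209 and 211 CPM in Tet-PTF1a Control and 57.6, 53.4, 54 and 53.6 in Dox, and at 328, 345, 322 and 342 in Tet-MIST1 Control and 402, 333, 356 and 355 in Dox. By the choice of these genes, all PTF1a Dox libraries lay below their Controls and the change with MIST1 was not called. The DKK1 difference was -2.07 ± 0.07 (edgeR FDR 1.79e-15). ABCC3, a drug and bile salt exporter, went from 52.6 ± 0.554 to 12 ± 0.698 CPM with PTF1a and was at 89.7 ± 2.77 and 88.3 ± 8.72 in Tet-MIST1 (-2.10 ± 0.09). MT2A, a metal-binding metallothionein, had a difference of -1.92 ± 0.14, and BCAS1 of -2.37 ± 0.30. COL13A1, a transmembrane collagen, had a difference of -2.16 ± 0.25 from Control levels of 1.92 to 2.99 CPM in Tet-PTF1a and 46.8 to 49 in Tet-MIST1, and its MIST1 change just missed the threshold (FDR 0.0509).

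With MIST1 only, the largest rises were those of RAB26, ACBD7, TPD52L1, SMPDL3B, MAATS1 and SLC43A1. RAB26, a small GTPase of secretory granules at chr16:2198145-2204162, plus strand, was at 13.5, 15, 15.6 and 18 CPM in Tet-MIST1 Control and 71.5, 66.6, 62.7 and 61.8 in Dox, and at 17, 17.7, 17.7 and 16 in Tet-PTF1a Control and 17.6, 18.6, 17.8 and 18.9 in Dox. The clones had similar RAB26 Control levels, and the difference was -1.98 ± 0.10 (edgeR FDR 2e-12). ACBD7, which holds an acyl-CoA binding domain, went from 1.73 ± 0.173 to 7.21 ± 0.409 CPM with MIST1 (-1.80 ± 0.14), and SMPDL3B, a lipid phosphodiesterase, from 2.91 ± 0.354 to 10.2 ± 0.475 (-1.59 ± 0.20). SLC43A1, an amino acid transporter, had a difference of -1.54 ± 0.25. The falls with MIST1 only were smaller and at low levels, with differences from 0.83 for BCDIN3D-AS1, which overlaps BCDIN3D, to 0.91 for the adhesion protein AMIGO1. Between them stood OLFML2B (0.90), GREB1 (0.90) and DPYSL5 (0.86).

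Among pathway lists, the Notch pathway stood highest, with 19 of 29 tested members called higher in Tet-PTF1a and 0 lower and a median difference of 0.32, against 17.8% and 18.6% of all genes and a median of 0.001. These shares of all genes, 36.4% in both directions together, are the background for every list named here. PTF1a raised 19 of the 29 and lowered 3, and MIST1 raised 3 and lowered 8. Of ligands, DLL1 was at 3.15, 4.49, 2.99 and 3.64 CPM in Tet-PTF1a Control, 8.02, 8.49, 8.81 and 7.46 in Tet-PTF1a Dox, 2.86, 2.42, 2.49 and 2.34 in Tet-MIST1 Control and 2.08, 2.01, 1.98 and 1.55 in Tet-MIST1 Dox, and moved oppositely (1.59 ± 0.17, edgeR FDR 1.22e-07). DLL3 and DLL4 rose with PTF1a only and JAG1 fell with MIST1 only. Of receptors, NOTCH1 was at 33.8, 35.4, 37.1 and 37.7 CPM in Tet-PTF1a Control and 92, 93.6, 92.2 and 86 in Dox, and at 20.8, 17.5, 18.8 and 18 in Tet-MIST1 Control and 14.5, 19.7, 15.6 and 18.6 in Dox, a difference of 1.47 ± 0.10 (edgeR FDR 6.71e-10). NOTCH2 rose with PTF1a only, and NOTCH3 fell with MIST1 only. The receptor proteases parted as well: ADAM10 rose with PTF1a only and ADAM17 was opposite.

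Of the nuclear partners, RBPJ, the DNA-binding subunit shared by Notch and the PTF1 trimer, rose by 0.16 with PTF1a (67.6 to 71.6 CPM in Control, 75.3 to 79.6 in Dox) and changed by -0.06 with MIST1, a difference of 0.23 ± 0.05 (edgeR FDR 0.00166). The coactivators MAML1 and MAML3 also rose with PTF1a only. Of target genes, HEYL, a transcriptional repressor whose promoter is shown above, was at 8.72, 8.32, 8.4 and 8.81 CPM in Tet-PTF1a Control, 82.8, 86.1, 87.5 and 90.4 in Tet-PTF1a Dox, 6.93, 5.99, 7.55 and 7.62 in Tet-MIST1 Control and 5.24, 7.76, 7.29 and 5.69 in Tet-MIST1 Dox, a difference of 3.43 ± 0.13 (edgeR FDR 3.36e-14). HEY1, a related repressor, was at 4.39, 4.77, 4.76 and 4.08 CPM in Tet-PTF1a Control and 14.8, 14.9, 14 and 15 in Dox, and at 2.88, 2.75, 2.99 and 2.74 in Tet-MIST1 Control and 2.31, 1.9, 1.92 and 1.67 in Dox and moved oppositely (2.24 ± 0.12). The difference was not called for HES1, HES2, HES4, HES6 or HES7. The count for the list was 21 higher and 0 lower without Tet-MIST1 Dox replicate 1 and 22 and 0 with the length trend removed.

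ID1, ID2 and ID3 rose with PTF1a and were not called with MIST1. ID1 was at 82.6, 90.5, 98 and 99.4 CPM in Tet-PTF1a Control and 435, 423, 433 and 421 in Dox, and at 153, 137, 147 and 147 in Tet-MIST1 Control and 198, 132, 139.6 and 153 in Dox (2.12 ± 0.13, edgeR FDR 1.09e-09). ID3 was at 44.2, 51.7, 50.5 and 51.5 CPM in Tet-PTF1a Control and 359, 366, 357 and 381 in Dox, and at 92.6, 81.6, 86.8 and 88.7 in Tet-MIST1 Control and 101, 68.1, 71.2 and 83.3 in Dox (3.00 ± 0.13, edgeR FDR 7.01e-12). Tet-MIST1 Dox replicate 1 was the highest MIST1 library for both genes, and without it the MIST1 change of ID3 was -0.22 (edgeR FDR 0.0072). ID2 went from 5.72 ± 0.65 to 35.7 ± 2.33 CPM with PTF1a and was at 15.4 ± 0.29 and 16.7 ± 2.66 in Tet-MIST1 (2.53 ± 0.13). ID4 differed by 0.19 (95% interval -0.22 to 0.64) and was not called. Of the E proteins, the partners of PTF1a, TCF12 fell by 0.21 on the log2 scale with MIST1 and changed by -0.02 with PTF1a (0.20 ± 0.07, edgeR FDR 0.0354). TCF3 differed by -0.09 (interval -0.21 to 0.04) and TCF4 by -0.10 (interval -0.44 to 0.26), with TCF4 lowered by PTF1a (-0.54). The list of ID and E protein genes had 4 of 7 members higher and 0 lower, with a median difference of 0.20.

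BMP and TGF-beta genes moved both ways, 8 of 31 higher and 7 lower, against 17.8% and 18.6% of all genes, with a median difference of 0.03. With the length trend removed 8 were higher and 11 lower and the median was -0.06. SMAD6, an inhibitory SMAD of BMP signalling, was at 12.3, 13.3, 13.3 and 13 CPM in Tet-PTF1a Control, 4.21, 3.03, 3.16 and 3.23 in Tet-PTF1a Dox, 5.58, 4.81, 5.98 and 5.71 in Tet-MIST1 Control and 5.48, 6.66, 5.63 and 5.47 in Tet-MIST1 Dox (-2.00 ± 0.13, edgeR FDR 1.49e-10). Its relative SMAD7 also fell with PTF1a only, and SMAD1 and SMAD9, which transmit BMP signals, rose with PTF1a only. INHBB, the beta B subunit of inhibins and activins, was at 39.6, 41.2, 46.3 and 42.1 CPM in Tet-PTF1a Control and 14.8, 13.3, 14.2 and 13.3 in Dox, and at 18.9, 17.1, 19.4 and 18.9 in Tet-MIST1 Control and 22.9, 21.8, 19.9 and 20.9 in Dox, an opposite pair of changes (-1.80 ± 0.09, edgeR FDR 9.8e-13). The ligand TGFB3 rose by 1.74 with PTF1a and 0.38 with MIST1.

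**Figure D4:**
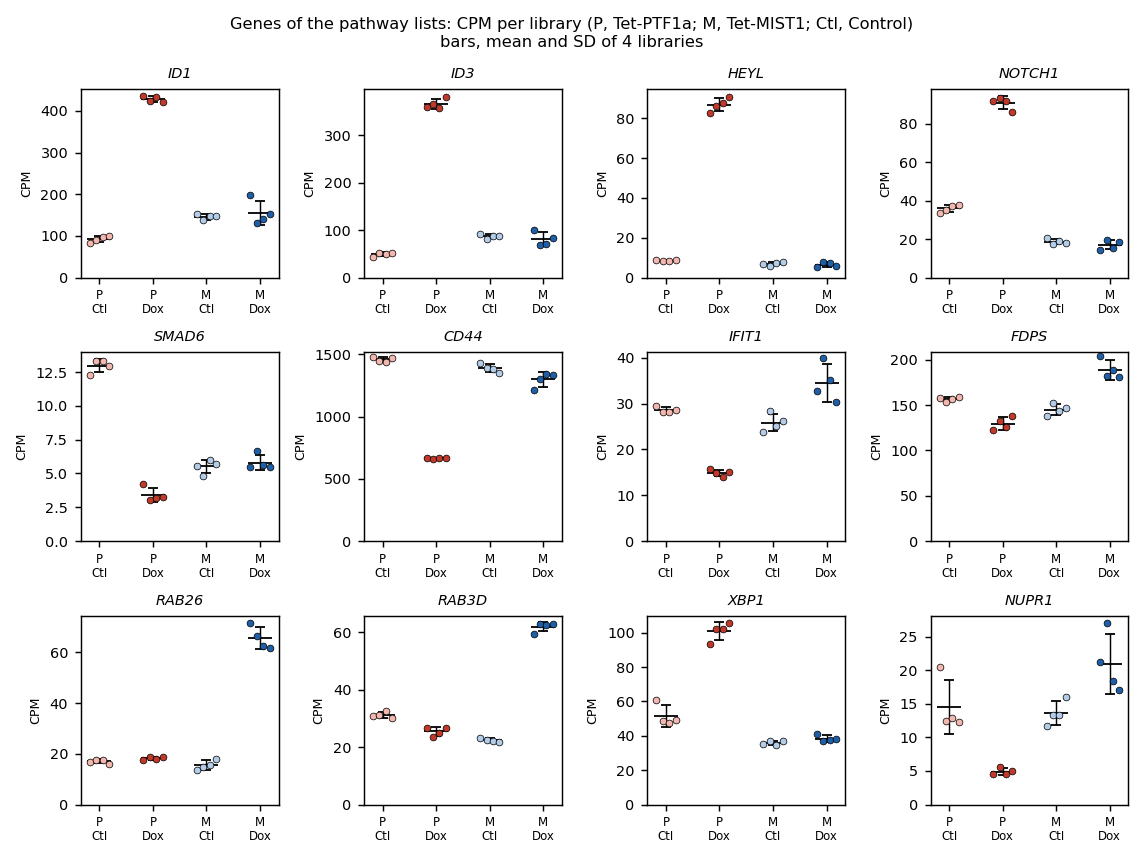
CPM in each library of 12 genes of the lists described in the text, by line and treatment, on axes that start at 0; points are libraries and bars the mean and SD of 4. ID1, ID3, HEYL, NOTCH1 and XBP1 stand higher in PTF1a Dox than in every other group, CD44 and SMAD6 stand lower there, and RAB26 and RAB3D stand highest in MIST1 Dox.

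Of the 28 acinar and pancreas transcription factors listed, 12 were tested, 6 with a higher and 2 with a lower response in Tet-PTF1a and a median difference of 0.30. The study examined several members in these lines, and the list was chosen with results of these samples known, so it is not independent evidence of direction. NR5A2, a nuclear receptor of acinar cells, was at 38.6, 39.4, 39.1 and 38.2 CPM in Tet-PTF1a Control and 72.3, 77.7, 80.3 and 77.9 in Dox, while in Tet-MIST1 it was at 0.857, 0.79, 0.603 and 0.913 in Control and 0.675, 0.936, 0.758 and 0.791 in Dox. The clones differed far more in NR5A2 than either factor moved it, and the difference in response was 0.98 ± 0.16 (edgeR FDR 5.61e-05). PDX1, a factor of pancreas formation, went from 1.8 ± 0.225 to 2.76 ± 0.154 CPM with PTF1a (0.57 ± 0.16), and GATA6 from 0.479 ± 0.211 to 0.823 ± 0.149 (1.03 ± 0.33). SOX9, a factor of ductal and progenitor cells, rose by 0.30 with PTF1a and fell by 0.18 on the log2 scale with MIST1 (0.49 ± 0.05, edgeR FDR 1.47e-07). FOXA3 was called for the difference (0.91 ± 0.36, edgeR FDR 0.0299) though in neither line.

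On the lower side, CREB3L1, a membrane-bound factor of secretory cells, rose with MIST1 from 1.86 ± 0.211 to 2.97 ± 0.31 CPM and was at 6.75 ± 0.532 and 6.49 ± 1.49 in Tet-PTF1a (-0.70 ± 0.19). FOXA2 fell with PTF1a from 61.7 ± 2.32 to 42.2 ± 1.58 CPM (-0.43 ± 0.07). The difference was not called for GATA4 (0.04, interval -0.10 to 0.18), HNF4G (-0.23, interval -0.85 to 0.35), MNX1 (0.13, interval -0.31 to 0.57) or PAX6 (0.36, interval -0.41 to 1.22). Of 33 digestive enzymes and secretory products 3 could be tested (AMY2B, CEL and CTRL), with 0 called in edgeR's test of the difference.

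Secretory and ER genes, among them targets of MIST1, had 10 of 15 with a lower and 3 with a higher response in Tet-PTF1a and a median difference of -0.29. Some members were examined by the study in these lines and others are further genes of secretion, and this list too is not independent evidence of direction. MIST1 raised 10 and lowered 0 of the 15. RAB3D, a small GTPase of secretory granules at chr19:11432722-11450344, minus strand, was at 30.7, 31.3, 32.5 and 30.1 CPM in Tet-PTF1a Control, 26.8, 23.6, 25 and 26.5 in Tet-PTF1a Dox, 23.3, 22.6, 22.2 and 21.8 in Tet-MIST1 Control and 59.5, 62.7, 62.6 and 63 in Tet-MIST1 Dox. PTF1a lowered RAB3D and MIST1 raised it, without overlap in either line, a difference of -1.75 ± 0.06 (edgeR FDR 1.47e-14). CCPG1, a receptor for autophagy of the endoplasmic reticulum (ER) whose exons overlap PIGB, went from 15.9 ± 0.767 to 36.6 ± 1.73 CPM with MIST1 (-1.04 ± 0.10). DNAJC1, SEC61B and SEC62 also rose with MIST1 only, and SERP1 rose with both and more with MIST1.

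The other 3 went with PTF1a. XBP1, a transcription factor of the unfolded protein response, was at 61.1, 48.5, 47.6 and 49.3 CPM in Tet-PTF1a Control and 93.4, 102, 102 and 106 in Dox, and at 34.9, 37, 34.4 and 36.9 in Tet-MIST1 Control and 41.1, 36.7, 37.6 and 38 in Dox. Its difference was 0.86 ± 0.09 (edgeR FDR 2.11e-07) and 0.96 without Tet-PTF1a Control replicate 1, its highest Control library. ATF6, an ER stress sensor, rose from 69.4 ± 3.97 to 96.5 ± 1.02 CPM with PTF1a and was at 64.6 ± 2.04 and 64 ± 3.61 in Tet-MIST1 (0.48 ± 0.06), and CREB3L2 rose with PTF1a only.

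Among 31 Rab, SNARE and exocytosis genes, 7 were higher and 10 lower, 54.8% in all against 36.4% of all genes. The median difference was -0.04. Without Tet-PTF1a Control replicate 1 the list had 7 higher and 8 lower. The members that rose with PTF1a only were RAB37, STXBP3, SYT7 and SYTL4. RAB37 went from 0.499 ± 0.157 to 1.09 ± 0.224 CPM (1.53 ± 0.32), and SYT7, a calcium sensor of exocytosis, from 5.52 ± 0.686 to 14.1 ± 0.498 (1.48 ± 0.17). SYTL2 and RAB3B were raised by PTF1a and lowered by MIST1, and SYTL1 the reverse. STX4 and VAMP8 were called for the difference although neither line's own change was.

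Of 35 ER chaperones and stress sensors, PTF1a raised 23 and MIST1 raised 9, and 9 had a higher and 4 a lower response in Tet-PTF1a with a median difference of 0.05. Together 37.1% of this list was called for the difference, against 36.4% of all genes. Without Tet-MIST1 Dox replicate 1 the list had 13 higher and 4 lower and a median of 0.07, where 5511 of the 13506 genes were called. HYOU1, an ER chaperone, was at 341, 331, 329 and 335 CPM in Tet-PTF1a Control and 459, 452, 446 and 461 in Dox and changed by -0.04 with MIST1 (0.49 ± 0.05). HERPUD1, of ER-associated degradation, rose with MIST1 by 0.26, and its difference of -0.46 ± 0.13 was -0.30 without Tet-PTF1a Control replicate 1. Of 32 genes of the translocon, signal recognition particle, signal peptidase and oligosaccharyltransferase, 5 were higher and 8 lower, 40.6% in all against 36.4% of all genes, with a median of -0.03, and 10 were higher with the length trend removed. PTF1a raised MAGT1 of the oligosaccharyltransferase (0.38 ± 0.04), and MIST1 raised SEC61B of the translocon (-0.38 ± 0.10). SEC63 (-0.33 ± 0.05) and SPCS1 (-0.38 ± 0.09), which overlaps GLT8D1, moved in opposite directions.

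Lysosomal genes had 17 of 38 members lower and 3 higher, 52.6% in all against 36.4% of all genes, with a median difference of -0.16. PTF1a lowered 15 of them and raised 7, and MIST1 raised 11 and lowered 1. MIST1 raised 17 without Tet-MIST1 Dox replicate 1, and the median was -0.09 with the length trend removed. ACP2, lysosomal acid phosphatase, went from 26.1 ± 1.22 to 55 ± 4.58 CPM with MIST1 and from 22.5 ± 0.905 to 25.4 ± 1.33 with PTF1a (-0.90 ± 0.08); its exons overlap NR1H3. The protease CTSH fell with PTF1a from 17.7 ± 1.14 to 11.6 ± 0.731 CPM (-0.74 ± 0.09). CTSF, a related protease, was opposite (-0.61 ± 0.08), as were CTSD, LAMP2, NEU1 and MITF.

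Targets of ATF4 and the integrated stress response had 11 of 25 members lower and 0 higher, 44% in all against 36.4% of all genes. The median difference was -0.35, and this result moved with a single library. Tet-PTF1a Control replicate 1 was the highest Control library for CHAC1, at 28.5, 16.4, 16.6 and 18 CPM, and for ATF3, at 18.2, 10.4, 9.57 and 9.87. Without that library the list had 2 higher and 11 lower members and a median of -0.13, and PTF1a raised 5 and lowered 11 in place of 1 and 8. CHAC1, a glutathione-degrading enzyme, was at 7.39, 9.56, 7.79 and 9.81 CPM in Tet-PTF1a Dox and had a difference of -1.26 ± 0.21, or -1.01 without the library. ATF3 rose with MIST1 from 4.47 ± 0.425 to 7.53 ± 0.761 CPM and had a difference of -1.13 ± 0.26, or -0.81 without the library. ALDH1L2, of mitochondrial folate metabolism, also rose with MIST1 (0.98), with a difference of -1.03 ± 0.25 that became -0.76. The part of this library in the result was tested only by leaving it out.

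Interferon-stimulated genes parted widely, with 21 of 32 lower and 3 higher in Tet-PTF1a and a median difference of -0.44. The list had 22 lower and 3 higher without Tet-MIST1 Dox replicate 1, and 18 and 4 without Tet-PTF1a Control replicate 1. PTF1a lowered 18 and raised 4, MIST1 raised 13 and lowered 0, and 7 were opposite (IFIH1, IFIT1, IFITM1, IFITM2, IFITM3, IRF9 and ISG15). IFIT1, which binds foreign RNA, was at 29.5, 28.1, 28.1 and 28.5 CPM in Tet-PTF1a Control, 15.6, 14.8, 14 and 15.1 in Tet-PTF1a Dox, 23.8, 28.4, 25.2 and 26.2 in Tet-MIST1 Control and 32.8, 39.9, 35.2 and 30.3 in Tet-MIST1 Dox (-1.36 ± 0.10, edgeR FDR 1.19e-09). IFIT2 was at 28, 27.9, 27.5 and 28 CPM in Tet-PTF1a Control and 8.3, 9, 10.0 and 9.39 in Dox, and at 28.4, 32.6, 32 and 28.5 in Tet-MIST1 Control and 28.7, 39.3, 31.1 and 27.6 in Dox (-1.65 ± 0.13). OASL, a relative of the oligoadenylate synthetases, had a difference of -1.66 ± 0.23. IRF1 and MX2, which were among the members with a higher response, rose with PTF1a only.

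Genes of cholesterol and fatty acid synthesis had 20 of 32 members lower and 0 higher in Tet-PTF1a, with a median difference of -0.29. PTF1a lowered 25 of the 32 and raised 1, and MIST1 raised 8 and lowered 1. FDPS, of the mevalonate pathway, was at 158, 153, 157 and 159 CPM in Tet-PTF1a Control, 122, 133, 125 and 138 in Tet-PTF1a Dox, 138, 152, 143 and 146 in Tet-MIST1 Control and 204, 182, 189 and 181 in Tet-MIST1 Dox (-0.65 ± 0.06, edgeR FDR 6.31e-08). FDFT1, HMGCS1, IDI1, INSIG1 and LSS were opposite too. The regulator SREBF1 fell with PTF1a from 134 ± 3.51 to 90.0 ± 1.9 CPM (-0.75 ± 0.08), and the desaturase FADS2 from 465 ± 7.74 to 244 ± 3.34 (-0.99 ± 0.12). EBP, a sterol isomerase, had a difference of -0.64 ± 0.09. FDPS, SREBF1 and FADS2 overlap RUSC1-AS1, RAI1 and FADS1 on the other strand.

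Glycolysis and hypoxia genes had 19 of 28 members lower and 1 higher in Tet-PTF1a, with a median difference of -0.28. PTF1a lowered 21 and raised 3, and MIST1 raised 3 and lowered 2. ENO2, an enolase, was at 50.4, 57.2, 56.9 and 55.4 CPM in Tet-PTF1a Control and 32.3, 30.4, 31.1 and 29.8 in Dox, and at 49.8 ± 0.947 and 49.1 ± 4.29 in Tet-MIST1 Control and Dox (-0.81 ± 0.08, edgeR FDR 5.62e-08). ALDOC, an aldolase, went from 22.6 ± 1.25 to 13.5 ± 0.634 CPM with PTF1a (-0.70 ± 0.12). ANKRD37, which overlaps UFSP2, rose with MIST1 only (-0.91 ± 0.16), and the glucose transporter SLC2A1, the 1 higher member, rose with PTF1a only. CA12 had a difference of -0.85 ± 0.34 that was lost without Tet-PTF1a Control replicate 1 (edgeR FDR 0.0779).

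Mitotic genes had 14 of 32 members lower and 0 higher, 43.8% in all against 36.4% of all genes, with a median difference of -0.12. PTF1a lowered 14 and raised 2, and MIST1 raised 9 and lowered 0. The list had 17 lower and 0 higher without Tet-MIST1 Dox replicate 1, and 12 and 0 without Tet-PTF1a Control replicate 1. CENPA, the centromeric histone, was at 48.8 to 53.2 CPM in Tet-PTF1a Control and 45.2 to 47.2 in Dox, and at 38.7, 42.8, 41.7 and 40.7 in Tet-MIST1 Control and 55.4, 46.9, 52.3 and 51.3 in Dox (-0.47 ± 0.07, edgeR FDR 1.46e-05). DLGAP5, of the spindle, was also opposite (-0.32 ± 0.05), CDK1 fell with PTF1a by 0.12 on the log2 scale (-0.29 ± 0.07), and CENPE, a kinetochore motor, had a difference of -0.36 ± 0.10. DNA replication genes had 4 of 38 higher and 5 lower, 23.7% in all against 36.4% of all genes, and a median of 0.01. The counts were 6 and 6 without Tet-MIST1 Dox replicate 1, 2 and 5 without Tet-PTF1a Control replicate 1 and 8 and 6 with the length trend removed. Their named members were RRM2 (-0.36 ± 0.05), RFC4 (-0.33 ± 0.09), which overlaps EIF4A2, ORC1 (0.28 ± 0.07) and MCM10 (0.20 ± 0.06, not called with the length trend removed).

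Cyclins and CDK inhibitors moved both ways, 6 of 19 higher and 5 lower, 57.9% in all against 36.4% of all genes. The median was 0.06, or -0.02 with the length trend removed. CCND1, cyclin D1, was at 224, 229, 225 and 226 CPM in Tet-PTF1a Control, 374, 375, 362 and 378 in Tet-PTF1a Dox, 221, 204, 214 and 212 in Tet-MIST1 Control and 180.3, 206, 196 and 202 in Tet-MIST1 Dox (0.84 ± 0.05, edgeR FDR 1.11e-10). CDK6 (0.76 ± 0.08), the partner of cyclin D1 that overlaps LOC101927497, and the inhibitors CDKN1C (0.57 ± 0.14) and CDKN1A also rose with PTF1a only. CDKN2D, an inhibitor of CDK4 and CDK6, was opposite, at 7.56 ± 0.438 and 5.78 ± 0.184 CPM in Tet-PTF1a and 9.75 ± 0.137 and 14.6 ± 0.928 in Tet-MIST1 (-0.95 ± 0.09).

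Cancer stem cell markers had 7 of 8 members lower and 0 higher in Tet-PTF1a, with a median difference of -0.58. The study took these markers from published work and examined them in these samples. CD44, a hyaluronan receptor, was at 1475, 1448, 1442 and 1471 CPM in Tet-PTF1a Control, 668, 657, 664 and 667 in Tet-PTF1a Dox, 1432, 1389, 1383 and 1352 in Tet-MIST1 Control and 1217, 1300.3, 1342 and 1335 in Tet-MIST1 Dox (-1.04 ± 0.05, edgeR FDR 6.01e-13). CD24, a surface glycoprotein with near-identical copies in the genome that make its counts uncertain, went from 162 ± 4.46 to 47.7 ± 1.59 CPM with PTF1a (-1.61 ± 0.08). The aldehyde dehydrogenase ALDH1A3 fell in both lines and more with PTF1a (-0.79 and -0.29), and ALDH2 (-0.53 ± 0.10), the receptor MET (-0.36 ± 0.07) and the exporter ABCG2 (-0.95 ± 0.17) fell with PTF1a only. DCLK1, a kinase, rose with MIST1, from 44 ± 1.51 to 67.7 ± 2.04 CPM, and was at 1.81 ± 0.192 and 1.86 ± 0.337 in Tet-PTF1a, where it was low throughout (-0.63 ± 0.13). DCLK1 thus counts as lower through its rise with MIST1. EPCAM differed by -0.10 (interval -0.30 to 0.09) and its difference was not called, though PTF1a alone lowered it. Within Tet-PTF1a itself 7 of the 8 markers were lowered, EPCAM among them and DCLK1 not.

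The study also examined ABC exporters in these samples. Of 7 exporters tested, 1 was higher and 4 lower, 71.4% in all against 36.4% of all genes, with a median difference of -0.28. The lower exporters were 5 without Tet-MIST1 Dox replicate 1 and 3 without Tet-PTF1a Control replicate 1. Besides ABCC3 and ABCG2, ABCC1 fell with PTF1a from 514 ± 15.8 to 388 ± 6.21 CPM, and its difference of -0.28 ± 0.10 was not called without Tet-PTF1a Control replicate 1 (edgeR FDR 0.0664). ABCC10 (-0.35 ± 0.09), which overlaps DLK2, rose with MIST1 only, and ABCC5 (0.44 ± 0.09) was opposite. ABCC2 (-0.17, interval -0.83 to 0.44) and ABCC4 (-0.13, interval -0.27 to 0.00) were not called. Of 12 gemcitabine genes, 3 were higher and 2 lower, 41.7% in all against 36.4% of all genes, with a median of -0.03. The nucleoside transporter SLC29A1 rose with PTF1a from 305 ± 5.46 to 370.3 ± 7.05 CPM (0.32 ± 0.05), as did the deaminase DCTD (0.24 ± 0.05), while TK1, thymidine kinase (-0.40 ± 0.08), and RRM2, a subunit of ribonucleotide reductase, were lowered by PTF1a and raised by MIST1.

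Panc-1 expressed its epithelial markers in both clones. Ductal genes moved both ways (6 of 21 higher, 8 lower, 66.7% in all against 36.4% of all genes, median difference -0.15). That median was -0.08 without Tet-MIST1 Dox replicate 1 and -0.08 with the length trend removed. KRT8, a keratin of simple epithelia that overlaps KRT18, was at 1763, 1764, 1822 and 1859.7 CPM in Tet-PTF1a Control, 741, 733, 718 and 745 in Tet-PTF1a Dox, 971, 937, 909.7 and 981 in Tet-MIST1 Control and 1235, 963, 984 and 1097 in Tet-MIST1 Dox (-1.47 ± 0.08, edgeR FDR 5.61e-12). KRT18 and KRT19 also fell with PTF1a only. KRT81 (1.90 ± 0.22) and KRT7 (1.42 ± 0.20) had higher responses in Tet-PTF1a from low levels, KRT7 going from 1.43 ± 0.344 to 4.48 ± 0.562 CPM. ELF3, an epithelial transcription factor, fell with PTF1a (-1.00) and was at 0.234 ± 0.0264 and 0.337 ± 0.162 CPM in Tet-MIST1. The summed level of the ductal list was 6130 to 6300 CPM in Tet-PTF1a Control, 4370 to 4520 in Tet-PTF1a Dox, 6480 to 6710 in Tet-MIST1 Control and 6730 to 7820 in Tet-MIST1 Dox.

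Mesenchymal genes had 4 of 19 members higher and 9 lower, 68.4% in all against 36.4% of all genes. The median difference was -0.14, or -0.21 without Tet-PTF1a Control replicate 1. THBS1, thrombospondin, was at 5.61, 5.88, 6.63 and 6.47 CPM in Tet-PTF1a Control, 37.9, 35.1, 39.6 and 36.6 in Tet-PTF1a Dox, 8.98, 6.08, 5.62 and 5.62 in Tet-MIST1 Control and 5.66, 4.31, 5.06 and 4.96 in Tet-MIST1 Dox (2.99 ± 0.17, edgeR FDR 3.08e-11). MMP2, a gelatinase, was opposite, at 108 ± 1.97 and 46.6 ± 1.77 CPM in Tet-PTF1a and 104 ± 3.9 and 123 ± 12.5 in Tet-MIST1 (-1.46 ± 0.08). ACTA2, smooth muscle actin, had a difference of -0.95 ± 0.26. FN1, fibronectin, had a difference of 1.07 ± 0.41 (edgeR FDR 0.0412) that was not called without Tet-MIST1 Dox replicate 1 (FDR 0.0658), without Tet-PTF1a Control replicate 1 or with the length trend removed. Of 27 collagen, laminin and matrix genes, 11 were higher and 8 lower, 70.4% in all against 36.4% of all genes. The median was 0.01, or -0.05 without Tet-MIST1 Dox replicate 1. COL27A1, raised by PTF1a and lowered by MIST1, was at 5.06 ± 0.603 and 9.14 ± 0.77 CPM in Tet-PTF1a and 6.6 ± 0.558 and 4.47 ± 0.594 in Tet-MIST1 (1.37 ± 0.14).

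Skeletal muscle genes had 5 of 9 tested members higher and 1 lower, 66.7% in all against 36.4% of all genes. The median difference was 0.31. TNNC1, a troponin, was at 0.701, 0.333, 0.835 and 0.701 CPM in Tet-PTF1a Control, 3.58, 4.57, 3.87 and 3.8 in Tet-PTF1a Dox, 1.17, 1.44, 1.69 and 1.14 in Tet-MIST1 Control and 1.66, 1.07, 1.08 and 0.912 in Tet-MIST1 Dox (2.65 ± 0.28, edgeR FDR 8.54e-08). CHRNB1 rose with PTF1a only (0.36 ± 0.10), the factor MEF2C fell with MIST1 only (0.31 ± 0.08), and RYR1 fell in both lines and more with PTF1a (-0.33 ± 0.06). The summed level of the list was 251 to 274 CPM in Tet-PTF1a Control, 240 to 255 in Tet-PTF1a Dox, 261 to 277 in Tet-MIST1 Control and 222 to 260 in Tet-MIST1 Dox. Of 12 KLF factors, 3 were higher and 2 lower, 41.7% in all against 36.4% of all genes. Their median was -0.07, or -0.02 without Tet-MIST1 Dox replicate 1. They were led by KLF3 (0.58 ± 0.07), which overlaps KLF3-AS1, KLF10 (0.43 ± 0.05), the opposite KLF13 (0.39 ± 0.11) and KLF7 (-0.36 ± 0.11).

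Markers of other cells were mostly unlisted. Of 11 islet endocrine markers 3 were tested, and 2 were higher in Tet-PTF1a. SCG3, a granin of secretory granules, was at 2.73, 2.88, 2.55 and 2.68 CPM in Tet-PTF1a Control and 5.68, 6.76, 5.45 and 6.76 in Dox, and at 0.649, 0.838, 0.917 and 0.799 in Tet-MIST1 Control and 0.649, 0.989, 0.812 and 0.608 in Dox (1.24 ± 0.21), and SCG2 went from 3.9 ± 0.332 to 8.02 ± 0.212 CPM with PTF1a (0.95 ± 0.16). Of 9 fibroblast markers 3 were tested, with COL1A1 lower (-1.25 ± 0.07) and THY1 higher (0.38 ± 0.07), and their summed level was 189 to 199 CPM in Tet-PTF1a Control, 112 to 114 in Tet-PTF1a Dox, 86.3 to 92.3 in Tet-MIST1 Control and 84.3 to 97.5 in Tet-MIST1 Dox. Of 10 immune and endothelial markers 2 were tested, and CD68, a lysosomal glycoprotein, fell in both lines and more with PTF1a (-0.69 ± 0.08).

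Counts for ribosomal protein and oxidative phosphorylation genes moved with the library that stood apart and with gene length. Of 59 ribosomal protein genes, 16 were lower and 0 higher, with a median difference of -0.16. A call was made for 27.1% of them against 36.4% of all genes, and 18.6% of all genes were lower. The count was 20 lower and 1 higher with a median of -0.07 without Tet-MIST1 Dox replicate 1, 9 lower without Tet-PTF1a Control replicate 1, and 6 lower and 7 higher with a median of -0.02 once the length trend was removed. RPL35A was at 545, 607, 567 and 614 CPM in Tet-MIST1 Control and 872, 625, 720.5 and 689.7 in Tet-MIST1 Dox, with replicate 1 the highest (-0.37 ± 0.10), and RPS24 (-0.33 ± 0.08) and RPL7A (-0.31 ± 0.07) were called opposite. Ribosomal protein genes have many processed copies, which can share their reads. Of 45 nuclear genes of oxidative phosphorylation, 18 were lower and 0 higher, 40.0% in all, with a median of -0.20. That was 20 lower with a median of -0.12 without Tet-MIST1 Dox replicate 1, and 13 lower and 1 higher with a median of -0.05 with the trend removed. ATP5D (-0.69 ± 0.11, or -0.32 with the trend removed), NDUFB10 (-0.46 ± 0.07), COX5A (-0.43 ± 0.08) and COX8A (-0.38 ± 0.09) led this list.

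**Figure D5:**
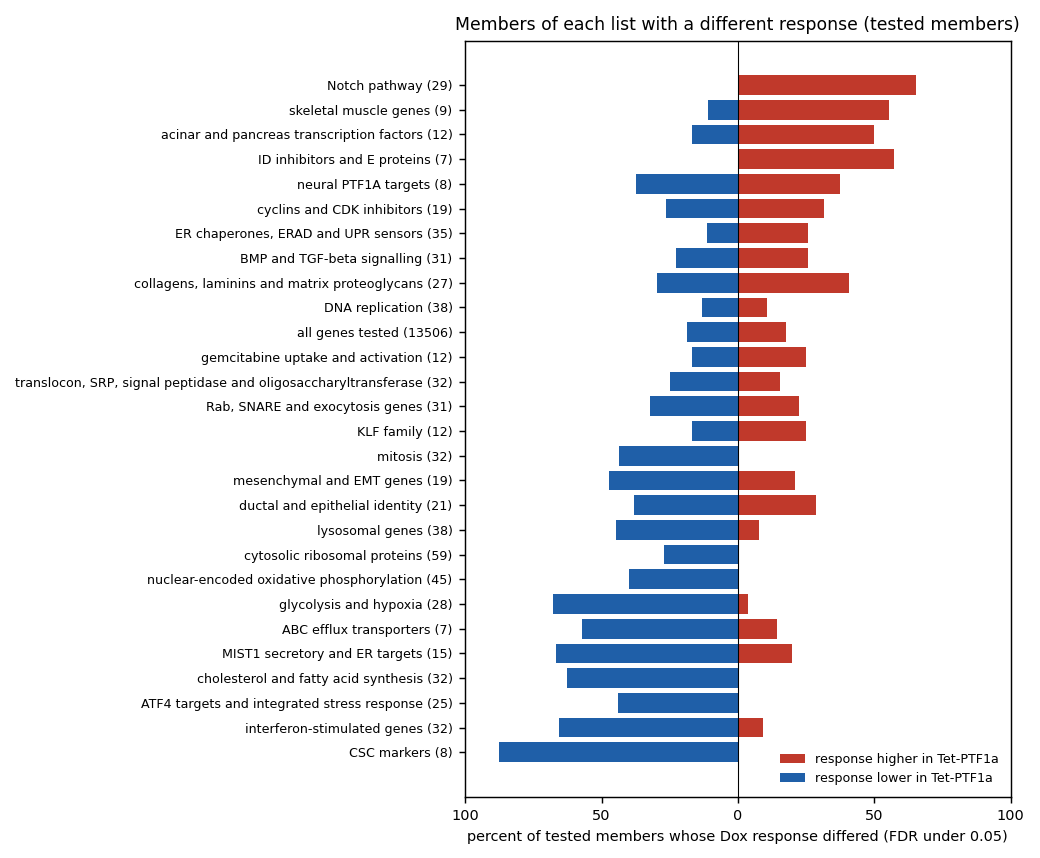
Percent of the tested members whose response was called higher (red, right) or lower (blue, left) in Tet-PTF1a, with the number of tested members in brackets and all 13506 genes as a row of their own; lists with under 5 tested members, such as the islet endocrine markers (2 of 3 higher), are not drawn, and both directions read from 0 at the centre. Of the lists drawn, the Notch pathway reaches furthest right (19 of 29) with no blue bar, and the cancer stem cell (CSC) markers, glycolysis, interferon and cholesterol lists reach furthest left among those not tied to MIST1 targets.

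The responses were not shown to differ for 8590 genes, and for 3198 of these the 95% interval of the difference lay within 0.25 of 0 on the log2 scale, so that a larger difference is outside it. Of the 820 genes moved the same way by both factors, 570 had no called difference (298 raised and 272 lowered), and for 261 of them the interval lay within 0.25. For the rest the interval was wider, and a missed threshold does not show that the factors acted alike.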

How the data were processed

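Polyadenylated RNA of Panc-1 lines was sequenced in paired ends on the Illumina platform, and the authors aligned the reads to hg19. The submitters' processing notes name TopHat, HTSeq, DESeq and edgeR, with no versions. The authors deposited 1 table per line holding raw counts per gene for 8 libraries, and a gene had to exceed 0.5 CPM in 4 or more samples to be kept. Whether counting used strand is not given in the sources used here. The deposited CPM values and the authors' own comparisons (log2 fold change, p-value and FDR columns) were not used.

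Genes were matched between tables by name, and 13 names that spreadsheet software had turned into dates and that stood at different positions were dropped. A total of 1964 genes share exonic bases with another listed gene. Counts of the 16 Tet-PTF1a and Tet-MIST1 libraries were scaled by TMM over library totals and tested in R 4.3.3 with edgeR 4.0.16 (quasi-likelihood, Benjamini-Hochberg FDR under 0.05). The contrast was (Tet-PTF1a Dox minus Control) minus (Tet-MIST1 Dox minus Control), and each line's own response was tested in a fit of that line alone. Log2 values carry a prior count of 2, which pulls low genes toward 0, while standard errors and 95% intervals belong to the unshrunk estimates. The 24 pairs of replicate libraries differed by more than counting error (lowest ratio of chi-square to its degrees of freedom 1.4).

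Genes are named by rule among those over 1 CPM: the 6 opposite genes of each direction with the largest smaller change, 3 same-direction genes per line, 6 genes per direction called in 1 line only, and per list up to 4 called members, with all members of 4 lists. The opposite and same-direction genes were taken only where Dox and Control libraries did not overlap in either line. Genes called in 1 line only were taken where the libraries of that line did not overlap. DNAJC1, HES1 and similar genes are named by response class only. The members and lists were chosen with earlier results of these data known. A few items are withheld and not reported here. Alternatives were DESeq2 1.42.0, voom in limma 3.58.1, other scalings and count filters, a replicate block, all 24 libraries, a size limit of 1, removal of the trend on length and base composition, a prior count of 0.125, and leaving out each library.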

Additional observations from a re-analysis of the deposited data

Results flagged for a closer look

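Within groups of 4 libraries, 42 of 632 tests of the gap between the most distant library and its neighbour exceeded the 95% critical value of Dixon's gap test (6.65%), where chance gives about 1 in 20. Tet-PTF1a Control replicate 1 held 9 of them. It was high for NUPR1 (20.5 CPM), XBP1 (61.1 against 47.6 to 49.3), ATF6 (75.4), HERPUD1 (45.8), CHAC1 (28.5), ATF3 (18.2), ALDH1L2 (23.7) and TCF12 (121), and low for ID3 (44.2 CPM). Tet-MIST1 Dox replicate 2 held 7 and was high for C3 (2.11 CPM), SMAD6 (6.66), CHAC1 (25.6), FADS2 (132 against 89.1 to 96.1), SREBF1 (244), ALDOC (9.98) and COL1A1 (77.5).

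In Tet-PTF1a, Control replicate 4 was low for CCM2L (2.78 CPM), MAGT1 (124) and KLF3 (48.2), and Control replicate 2 was low for FADS2 (454). Tet-PTF1a Dox replicate 1 was high for DKK1 (57.6 CPM), SMAD6 (4.21) and SEC63 (225). Tet-PTF1a Dox replicate 3 was high for ABCC3 (13 CPM) and DCTD (80.4) and low for CREB3L1 (4.28) and RRM2 (339). Tet-PTF1a Dox replicate 4 was high for RFC4 (71.2 CPM) and THY1 (50.2).

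In Tet-MIST1, Control replicate 1 was high for RRM2 (463 CPM) and THBS1 (8.98), Control replicate 2 was low for ATOH8 (1.25) and high for OLFML2B (1.05) and GREB1 (2.92), Control replicate 3 was low for KRT7 (4.27), and Control replicate 4 was high for HERPUD1 (24.1) and low for COL1A1 (63.7). Tet-MIST1 Dox replicate 1 was low for RAB3D (59.5 CPM) and high for NDUFB10 (193), Dox replicate 3 was low for TCF3 (115), and Dox replicate 4 was high for BMP8A (0.76) and CD68 (244).

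The other kind of result singled out was a response in opposite directions, tested as the difference between lines, which 682 genes had. Among the named genes raised by PTF1a and lowered by MIST1, the log2 differences were 4.90 for FBN3, 4.03 for ANGPT2, 3.89 for KIRREL2, 2.58 for KIAA0754, 2.24 for HEY1, 2.18 for PTCHD1, 1.61 for COBL, 1.59 for DLL1, 1.37 for COL27A1, 1.35 for FBXO32, 0.49 for SOX9, 0.44 for ABCC5, 0.39 for KLF13 and 0.38 for THY1. Among those lowered by PTF1a and raised by MIST1, they were -3.46 for WISP2, -2.74 for AQP3, -2.23 for CCM2L, -2.21 for NUPR1, -1.81 for IFITM1, -1.80 for INHBB, -1.75 for RAB3D, -1.65 for MITF, -1.46 for MMP2, -1.36 for IFIT1 and -0.95 for CDKN2D. Smaller differences of this direction were -0.69 for ATP5D, -0.65 for FDPS, -0.61 for CTSF, -0.47 for CENPA, -0.46 for NDUFB10, -0.40 for TK1, -0.38 for SPCS1, -0.36 for RRM2, -0.33 for SEC63, -0.33 for RPS24, -0.32 for DLGAP5 and -0.31 for RPL7A. Each was called in both lines and for the difference by edgeR.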

How the results depend on the processing

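The direction of the difference held in every alternative for all 146 called genes among the 156 chosen by rule, and 118 of them kept the call throughout. The alternatives reuse the data in which these genes were called, so a kept direction was likely from the start. The 2 sign changes were in genes not called: over the fits that left out 1 library, ABCC2 ran from -0.42 to 0.16 (without Tet-PTF1a Control replicate 4) and TCF4 from -0.24 to 0.038 (without Tet-MIST1 Dox replicate 2). DESeq2 called 4896 genes, voom 4968, library size alone 5063 (2869 higher and 2194 lower in Tet-PTF1a), upper quartile scaling 4910, a minimum of 10 counts 4800, and no count filter the same genes, against 4916. The number of opposite and same-direction genes was less stable, and the cause was not tested. With all 24 libraries in the fit, 2716 genes were called (1141 higher and 1575 lower), with 111 and 135 opposite (up and down in Tet-PTF1a) and 79 and 16 same-direction genes (larger in Tet-PTF1a and in Tet-MIST1). With Tet-One in the fit but without its first Dox library, an alternative chosen after seeing the data, 5048 were called and the same-direction sets held 262 and 59. A size limit of 1 left 470 genes (241 and 229), 64 and 51 opposite and 20 and 3 same-direction. Removing the trend on length and base composition gave 463 opposite genes up in Tet-PTF1a and 289 with the larger PTF1a change.

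Whether same-numbered libraries were paired is not stated, and the main fit did not pair them. Correlations of their deviations ran from -0.416 to 0.0788 over 8 pairs, of which 1 matched its own number best. With the replicate number as a block within each line 4165 genes were called, with 110 and 225 opposite and 82 with the larger change in Tet-PTF1a.

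Leaving out single libraries gave 4376 to 5511 genes (1893 to 2729 higher, 2270 to 2795 lower), 112 to 407 and 222 to 488 opposite, 80 to 246 with the larger PTF1a change and 77 to 154 with the larger MIST1 change. The lowest opposite counts came without Tet-MIST1 Control replicates 1 (113 and 227), 2 (167 and 253) and 3 (112 and 222) and, for genes up in Tet-PTF1a, Dox replicate 3 (190). Same-direction counts moved most without Tet-MIST1 Control replicates 1 (81) and 3 (80) and Dox replicates 1 (246) and 2 (154), and the 77 came without Tet-PTF1a Dox replicate 4. The 95% interval of the difference had a median width of 1.38 (log2) for the 537 genes under 1 CPM on average and of 0.252 for the 2476 at 100 CPM or more, with exceptions such as KIAA0754, which was wide at a high level.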
